A study of Mus musculus with 15 samples.

Results

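RAW 264.7 cells cultured for 5 days with RANKL were compared with RAW 264.7 cells cultured for 5 days without it, on 2 arrays against 1, which together are 3 of the 15 arrays of the series. RAW 264.7 is an established mouse line with the character of a macrophage, and RANKL is the cytokine that turns cells of this lineage into osteoclasts, the cells that resorb bone. The comparison asks which transcripts differ with RANKL once multinuclear cells have formed. The arrays were chosen by their titles, which give treatment and day. The RANKL cells of days 4 and 5 (2 arrays each) are labelled multi-nuclear, and the control cells of days 5 (1 array), 4 and 3 (2 arrays each) are labelled mononuclear. RANKL went into the culture on days 0 and 3 in serum-free alpha-MEM, and control cells received none; every culture grew in alpha-MEM with fetal bovine serum and antibiotics. The dose of RANKL is not given in the sources used here, and no other agent or genetic change is labelled for any group. Because the control of day 5 has 1 array, every gene was also set against the 4 control arrays of days 3 and 4. These 4 are the earlier controls named below. All groups come from 1 cell line, and the labels do not say whether arrays of a group came from separate cultures, which means that the spread behind each p-value may be technical.

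As background, RANKL binds its receptor RANK on macrophage precursors, and the signal passes through TRAF adaptors, NF-kB and the AP-1 factor Fos to NFATc1, the factor that switches on the osteoclast program. Mononuclear precursors then fuse into large cells with several nuclei, which seal a patch of bone under a ring of podosomes and pump acid onto it through a vacuolar proton pump. Cathepsin K, tartrate-resistant acid phosphatase and matrix metalloproteinases act in the acid space, and macrophage functions such as Fc receptor uptake and interferon responses are handled by a different set of genes.

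The values are MAS5 signals, which the authors scaled so that the trimmed mean of each array is 500, and the median signal was 143 and 139 on the RANKL arrays of day 5 and 117 on the control array of day 5. The RANKL arrays of day 5 did not sit together with the other late arrays on the first principal component. On the first principal component (35.8% of the variance) array 1 lay at 12.8 and array 2 at -10.6, whereas the other 7 arrays of days 3 to 5 lay between 18.9 and 32.8. The arrays of days 1 and 2, with and without RANKL, lay between -44.2 and -17.5, so on this component array 2 was nearer to these. On the second component (13.7%) arrays 1 and 2 lay at 26.7 and 32.1, and the arrays of days 1 and 2 between -21.5 and 14.2. Over all probe sets array 2 correlated most with array 1 (r = 0.975). What sets array 2 apart was not tested. The 2 arrays differed more than 4-fold in signal + 32 for 47 probe sets, against 3 to 18 probe sets in the other 5 replicate pairs. More than 2-fold they differed for 4.01% of probe sets, within the 2.03% to 4.22% of the other pairs. RNA quality, read as the ratio of the 3' to the 5' probe set of beta-actin, was 1.08 and 1.02 on the RANKL arrays of day 5 and 1.01 on the control array of day 5, within the range of 1.01 to 1.39 over the series.

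With RANKL at day 5, 100 of 8251 genes (1.21%) passed the threshold of 0.05 for the adjusted p of limma, 58 of them higher (0.703%) and 42 lower (0.509%). The genes that rose were led by the bone resorption enzymes Acp5, Ctsk and Mmp9 and by the factor Nfatc1. The genes that fell were led by the endocytic adaptor Dab2, the galectin Lgals9 and the methanethiol oxidase Selenbp1. Over single probe sets, 114 of 12422 passed (0.918%), 64 higher (0.515%) and 50 lower (0.403%), and 1765 had an unadjusted p under 0.05. Differences are in log2(signal + 32) with the standard error of the fit. The median difference was 0.10 over all genes, and 62.5% of all probe sets had a positive difference. In a fit without 1 RANKL array of day 5, 1 RANKL array faces 1 control array at that day. The spread between the 2 RANKL arrays is then not in the fit, so a pass in such a fit is no added support for a gene. The count of 114 was 52 without RANKL array 2 of day 5, 355 without RANKL array 1 of day 5, and 66 without either control array of day 4.

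**Figure D1:**
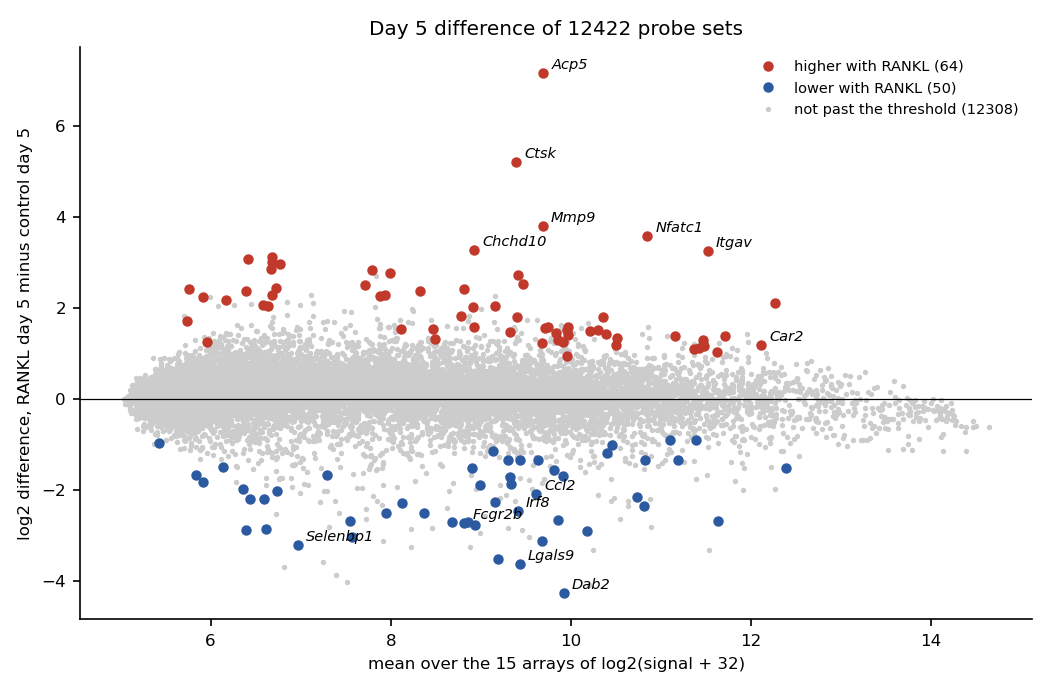
Each of 12422 probe sets is a point, with its mean log2(signal + 32) over the 15 arrays on the horizontal axis and its log2 difference, RANKL day 5 minus control day 5, on the vertical axis. The 64 probe sets that rose are red and the 50 that fell are blue; Acp5 stands highest at 7.15 and Dab2 lowest among the blue points at -4.27.

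Acp5, which encodes tartrate-resistant acid phosphatase, the enzyme used to stain osteoclasts, had the largest difference. Its signal was 9370 and 12283 on the RANKL arrays of day 5, against 43.5 on the control array of day 5 and 62.8 to 109 on the control arrays of days 3 and 4. The mean signal with RANKL was 249-fold that of the day 5 control, and the log2 difference was 7.15 ± 0.44 (adjusted p = 2.1e-05), or 6.55 against the controls of days 3 and 4. Acp5 has several RefSeq start sites, and 2 of its promoter windows, 250 bases before to 50 after a start (GRCm38.p6), hold a searched motif. They are shown because this gene carries the largest response. The capitals mark an interferon-stimulated element in the first window and a MITF/TFE box in the second. That box holds the letters read by the osteoclast factor MITF and its relatives. Acp5 is a gene of the minus strand.
Acp5, chr9:22135697-22135996: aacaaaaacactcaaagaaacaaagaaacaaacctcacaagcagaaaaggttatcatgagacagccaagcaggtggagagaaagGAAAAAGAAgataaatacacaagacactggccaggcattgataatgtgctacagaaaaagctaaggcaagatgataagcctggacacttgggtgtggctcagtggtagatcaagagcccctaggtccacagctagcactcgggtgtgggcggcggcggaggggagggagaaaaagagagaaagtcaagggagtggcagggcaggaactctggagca
Acp5, chr9:22130549-22130848: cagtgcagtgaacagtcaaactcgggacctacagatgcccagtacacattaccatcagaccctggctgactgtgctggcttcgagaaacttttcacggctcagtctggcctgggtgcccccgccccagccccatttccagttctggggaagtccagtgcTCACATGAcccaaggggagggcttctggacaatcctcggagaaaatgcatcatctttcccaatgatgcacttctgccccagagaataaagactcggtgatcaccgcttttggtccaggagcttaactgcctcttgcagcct
The interferon-stimulated element starts at -166 and the MITF/TFE box at -91 from the start site of its window.

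Of the other secreted enzymes of resorption, Ctsk and Mmp9 rose as well. Ctsk, cathepsin K, which cuts bone collagen, had signals of 5915 and 7481 in RANKL cells, against 151 in control cells of day 5 and 169 to 282 in those of days 3 and 4. Its difference was 5.19 ± 0.31 (adjusted p = 2.1e-05), 44.4-fold in mean signal. Mmp9, a gelatinase, had signals of 8824 and 4929 with RANKL, against 445 in the day 5 control and 432 to 896 on the earlier control arrays (3.80 ± 0.63, adjusted p = 0.019). For these enzymes neither RANKL array came near a control array.

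Taken by the list of osteoclast resorption genes, 9 of 20 represented genes rose and 0 fell, with a list median of 0.89 against 0.10 for all genes, and a median of 1.13 against the controls of days 3 and 4. The list was written with earlier results of these data known, so its count is a description. The 9 genes are 45% of the list, where 1.21% of all genes passed. Counts of the other lists are to be read against the same 1.21%. Both RANKL arrays lay above all 5 control arrays of days 3 to 5 for 14 of the 20, where 12.6% of all genes did so. Oscar, Atp6v0d2 and Dcstamp, which mark osteoclasts, have no probe set of their own here. Itgb3, the beta 3 chain that pairs with the alpha v integrin on osteoclasts, had signals of 12.9 and 10.7 with RANKL and 21.2 in the day 5 control. Calcr, the calcitonin receptor, had 27.2 and 3.95 with RANKL and 4.77 in the day 5 control. Both of these osteoclast markers thus stayed far below the median signal of an array on all 3 arrays, and neither passed (-0.28 for Itgb3 and 0.33 for Calcr; Calcr was -0.03 without RANKL array 1). Tnfrsf11a, the RANK receptor itself, had 497 and 874 with RANKL against 329 in the day 5 control, above all 5 late control arrays, and did not pass (0.94 ± 0.36, adjusted p = 0.263).

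Acid secretion genes rose in part. Car2, carbonic anhydrase II, which makes the protons, had signals of 9261 and 11754 with RANKL, against 4592 in the day 5 control and 1482 to 2595 in the controls of days 3 and 4. The difference was 1.18 ± 0.23 (adjusted p = 0.0377) against day 5 and 2.32 against days 3 and 4, so the size depends on the control used. Slc4a2, the chloride and bicarbonate exchanger that balances the cell's pH, rose by 1.80 ± 0.20 (2174 and 2135 with RANKL, 598 in the day 5 control, adjusted p = 0.00216). Slc9b2, a sodium and proton exchanger, had 237 and 775 with RANKL, 23.6 in the day 5 control and 4.79 to 17.5 on the earlier control arrays (3.07 ± 0.52, adjusted p = 0.0215). Without RANKL array 2 the adjusted p of Car2 was 0.178, and it was 0.0547 to 0.0667 without any 1 of the control arrays of days 3 and 4. Clcn7 (0.84) and Tcirg1 (0.33), the chloride channel and the proton pump subunit of the ruffled border, lay above all 5 control arrays and did not pass.

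Among 15 subunits and partners of the vacuolar proton pump, 1 rose and 0 fell, with a median of 0.51. The riser was Atp6v1d, a stalk subunit, with signals of 1819 and 1715 in RANKL cells, 579 in the day 5 control and 621 to 944 on the earlier control arrays (1.56 ± 0.27, adjusted p = 0.0238; 0.079 without RANKL array 2). Of the 15, 13 had a positive difference, where 62.5% of all probe sets did, and 11 lay above all 5 control arrays, where 12.6% of all genes did. Atp6ap2, an accessory subunit, had the largest difference, 1.73, and did not pass (adjusted p = 0.0615; 0.0246 and 0.025 without RANKL array 1 or 2 of day 4). Atp6v0a1, the isoform of other cells for the subunit that Tcirg1 supplies in osteoclasts, had -1.04 and did not pass (adjusted p = 0.274; 0.042 without RANKL array 1 of day 5), and its other probe set has the opposite sign.

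Single genes of attachment and of the actin cytoskeleton rose. Itgav, the alpha v integrin chain that binds bone matrix, had signals of 5694 and 7338 with RANKL, 656 in the day 5 control and 1239 to 1920 in the controls of days 3 and 4, and rose by 3.24 ± 0.28 (adjusted p = 0.00045). Dock5, an exchange factor for Rac that osteoclasts need for their sealing zone, had 1639 and 2444 with RANKL against 278 in the day 5 control (2.71 ± 0.33, adjusted p = 0.00466). Scin, the actin-severing protein scinderin, had 500 and 874 with RANKL against 65.4 in the day 5 control (2.83 ± 0.37, adjusted p = 0.00556). All RANKL values of these genes lay above every control array of days 3 to 5. Among 49 podosome, integrin and actin linker genes, a list that does not hold Itgav or Scin, 1 rose, Dock5, and 0 fell, with a median of -0.06. That share of 2.04% is near the 1.21% of all genes. Evl, an actin-elongating protein, had the lowest difference there, -2.25 (adjusted p = 0.0513; 0.00824 without RANKL array 1). The Itgav window on the plus strand is shown because, among risers with a window, Itgav is the next-largest after Acp5 that holds a motif. Mmp9 and Nfatc1, which rose more than Itgav, had no window to search. The Itgav window carries an interferon-stimulated element at -190 and a PU box, the letters of the myeloid factor PU.1, at -9, both in capitals.
Itgav, chr2:83724147-83724446: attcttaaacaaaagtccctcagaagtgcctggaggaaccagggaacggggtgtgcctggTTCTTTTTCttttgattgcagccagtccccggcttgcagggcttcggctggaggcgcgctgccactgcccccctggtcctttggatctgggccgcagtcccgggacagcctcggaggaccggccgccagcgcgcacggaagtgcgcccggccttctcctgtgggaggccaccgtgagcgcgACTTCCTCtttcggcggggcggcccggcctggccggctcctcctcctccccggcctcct
Beside these rises, none of 20 genes for cell fusion and tetraspanins passed in either direction (median -0.08), from -0.89 for Cd53 to 1.09 for Pstpip1, an adaptor of the actin cytoskeleton that did pass without RANKL array 1 (adjusted p = 0.0196).

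Transcription factors of the osteoclast program were led by Nfatc1. Its signals were 3981 and 6460 with RANKL, 399 in the day 5 control and 380 to 541 in the controls of days 3 and 4. The difference was 3.57 ± 0.45 (limma adjusted p = 0.00556). Control signals of Nfatc1 were higher before that, at 4410 on day 1 and 2134 and 861 on day 2. Prdm1, the repressor Blimp1, which shuts off genes that hold back osteoclast formation, had 305 and 241 with RANKL and 41.5 in the day 5 control (2.05 ± 0.39, adjusted p = 0.0373). Bhlhe40, a basic helix-loop-helix repressor, had 1851 and 1750 with RANKL against 500 in the day 5 control (1.78 ± 0.29, adjusted p = 0.0159). These were the 3 of 23 factors that rose, 0 fell, and the list median was 0.32. Prdm1 lost its call without RANKL array 1 (adjusted p = 0.0586), without RANKL array 2 (0.0898) and without any 1 of the control arrays of days 3 and 4 (0.0596 to 0.0603), and Bhlhe40 without RANKL array 2 (0.0617).

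Other factors of that list were high without passing. Myc, a growth factor-induced transcription factor, had 779 and 602 with RANKL, 79.6 in the day 5 control and 18.4 to 25.1 in the controls of days 3 and 4. It passed against the controls of days 3 and 4 (3.75, adjusted p = 0.000878) and not against day 5 (2.68 ± 0.65, adjusted p = 0.0796). Fos had 3777 and 5621 with RANKL and 1703 in the day 5 control, but 3971 on a day 4 control array, so the groups overlap over days 3 to 5 (1.42 ± 0.29, adjusted p = 0.0511), and its other probe set has the opposite sign. It passed without RANKL array 1 of day 5 (adjusted p = 0.0168) and without RANKL array 1 or 2 of day 4 (0.0375 and 0.0376). Mitf had 354 and 348 against 150 (1.07, adjusted p = 0.139). Of the 19 genes that restrain osteoclast formation, 1 fell and 1 rose, with a median of -0.72 against day 5 and -0.75 against days 3 and 4. The one that fell was Irf8, an interferon regulatory factor that holds macrophages in their state, with 399 and 137 in RANKL cells, 1454 in the day 5 control and 1504 to 1925 in the earlier controls (-2.46 ± 0.48, adjusted p = 0.0391). Its call was lost without RANKL array 2 (adjusted p = 0.123) and without any 1 of the control arrays of days 3 and 4 (0.0682 to 0.0747). The one that rose was Egr2, a zinc finger factor, with 971 and 740 in RANKL cells against 286 in the day 5 control (1.47 ± 0.27, adjusted p = 0.0283; 0.0533 and 0.0546 without a control array of day 4).

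**Figure D2:**
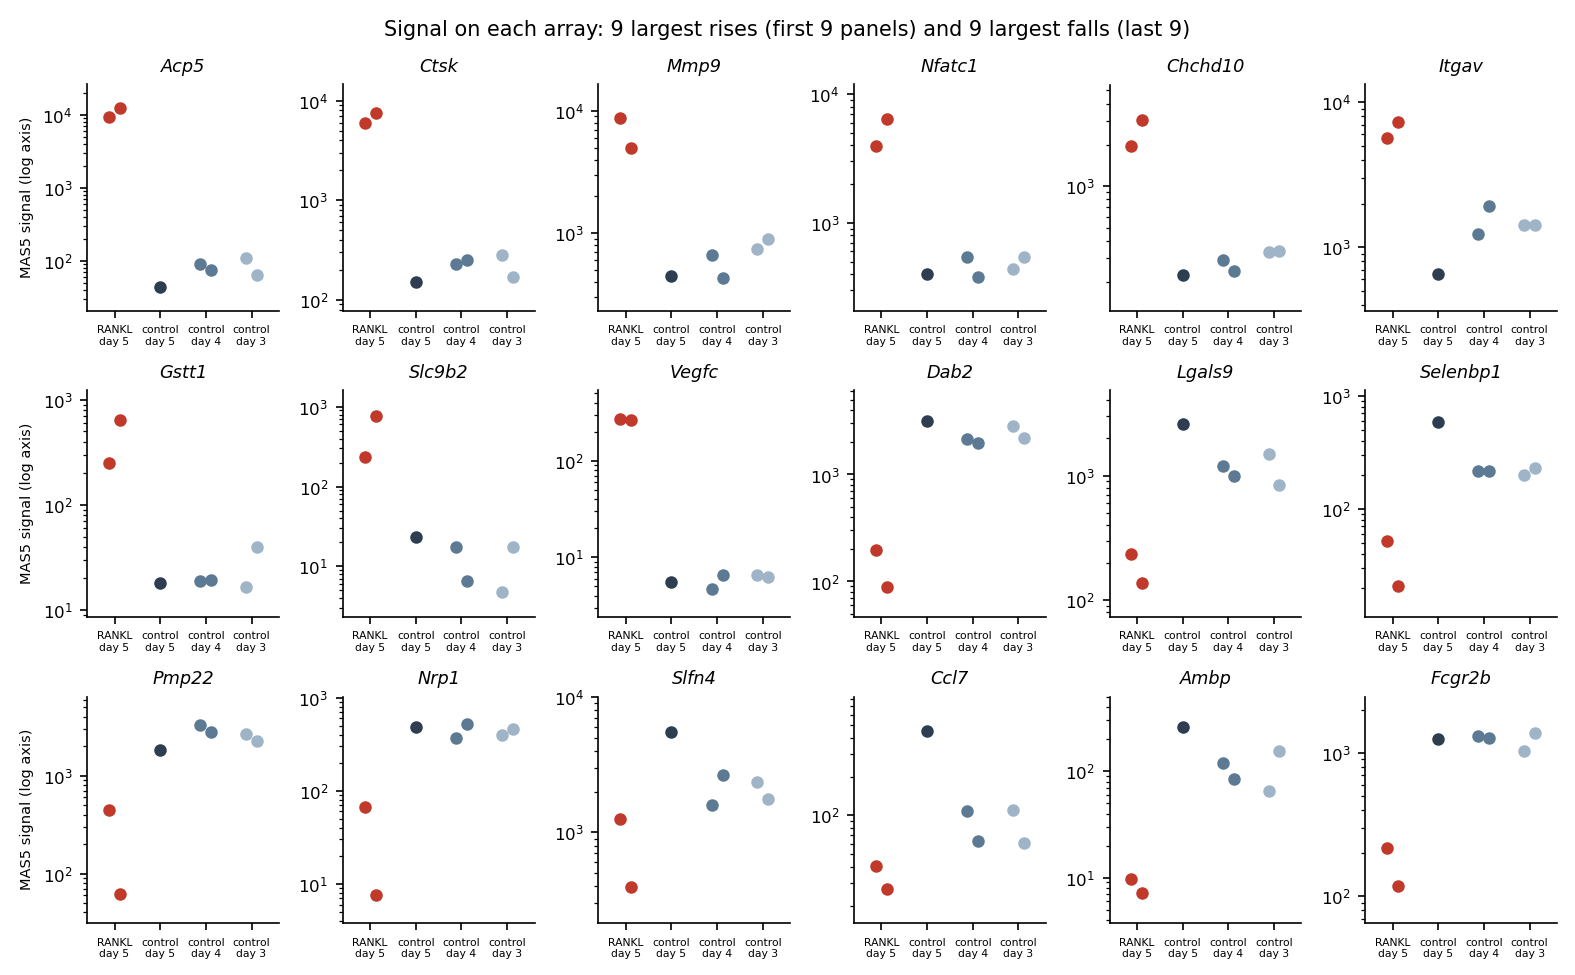
Each panel shows the MAS5 signal on a log axis for 1 gene on 7 arrays, the 2 of RANKL day 5 at the left and then the control arrays of days 5, 4 and 3. The first 9 panels are the largest rises and the last 9 the largest falls by log2 difference, and in each panel both RANKL points lie beyond all 5 control points; for Pmp22 and Nrp1 the 2 RANKL points are far apart (442 and 61.1 for Pmp22).

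Of 16 genes of creatine and adenylate energy buffering and mitochondrial partners, 3 rose and 0 fell (18.75%, where 1.21% of all genes passed). Chchd10, a mitochondrial protein of the cristae, had signals of 1961 and 3023 with RANKL against 225 in the day 5 control and 242 to 340 in the earlier controls (3.26 ± 0.31, adjusted p = 0.000603). Ckb, brain-type creatine kinase, which osteoclasts use to supply the proton pump with ATP, had 5561 and 6048 with RANKL and 2206 in the day 5 control (1.38 ± 0.23, adjusted p = 0.0185). Ak1, adenylate kinase 1, had 254 and 352 with RANKL and 36.2 in the day 5 control (2.28 ± 0.37, adjusted p = 0.0164). Slc6a8, the creatine transporter, had 1.90 and did not pass (adjusted p = 0.0573). Of 59 oxidative phosphorylation genes 1 rose, a share near that of all genes. It was Cycs, cytochrome c (714 and 777 with RANKL, 231 in the day 5 control, 1.56 ± 0.30, adjusted p = 0.0377). Positive differences were found for 46 of the 59, where 62.5% of all probe sets were positive, with a list median of 0.28. Of 23 TCA cycle genes 0 passed and 21 were positive (median 0.35), with Sdha, a succinate dehydrogenase subunit, highest at 1.11 (adjusted p = 0.0573; 0.0407 without RANKL array 1). Without RANKL array 2 the adjusted p was 0.0793 for Ckb, 0.0829 for Ak1 and 0.157 for Cycs, and for Cycs it was 0.06 to 0.0615 without any 1 of the control arrays of days 3 and 4.

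Further large rises were spread over surface and signalling genes. Vegfc, a lymphatic growth factor, had signals of 273 and 267 with RANKL and 5.54 in the day 5 control (3.01 ± 0.43, adjusted p = 0.00815). The controls of days 3 and 4 had 4.74 to 6.64, those of day 2 had 57.3 and 8.06, and that of day 1 had 196. The control signals of days 3 to 5 are near the floor of the arrays. The size thus depends on the value added before the log, from 1.81 with 100 to 5.37 with 1. Gstt1, a glutathione transferase, had 250 and 638 with RANKL against 17.9 in the day 5 control (3.12 ± 0.49, adjusted p = 0.0132). Mst1r, the receptor of macrophage-stimulating protein, had 294 and 452 against 18.8, though 95 on a day 4 control array (2.97 ± 0.50, adjusted p = 0.0206). Plxnd1, a semaphorin receptor, had 1907 and 1976 with RANKL, 313 in the day 5 control and 699 to 871 in the earlier controls, so its difference was 2.52 ± 0.23 against day 5 (adjusted p = 0.000585) and 1.31 against days 3 and 4. Clec4a2, an inhibitory C-type lectin, had 230 and 414 against 28.9 (2.49 ± 0.42, adjusted p = 0.0211), and Rgs16, a brake on G protein signals, had 1223 and 1628 against 238 (2.42 ± 0.33, adjusted p = 0.00712). Ccr1, a chemokine receptor of myeloid cells, had 1584 and 1402 with RANKL, 266 in the day 5 control and 113 to 189 in the earlier controls (2.35 ± 0.31, adjusted p = 0.00556). Ank, which exports pyrophosphate, was already bright, with 8709 and 9562 with RANKL against 2099 in the day 5 control (2.10 ± 0.23, adjusted p = 0.00216). Mst1r and Clec4a2 lost their calls without RANKL array 2 (adjusted p = 0.102 and 0.103).

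The largest fall was that of Dab2, an adaptor that gathers cargo such as lipoprotein receptors into clathrin-coated pits. Its signals were 197 and 89.2 with RANKL, against 3186 in the day 5 control and 1989 to 2821 in the controls of days 3 and 4 (-4.27 ± 0.49, adjusted p = 0.00286). Lgals9, galectin 9, a sugar-binding protein with immune functions, had 235 and 137 with RANKL, 2591 in the day 5 control and 847 to 1488 on the earlier control arrays (-3.63 ± 0.51, adjusted p = 0.00725). Both RANKL arrays were thus below every late control array for these genes, by more against day 5 than against days 3 and 4 (-3.79 for Dab2 and -2.42 for Lgals9). Their promoter windows are shown as those of the genes with the largest falls, with the interferon-stimulated elements in capitals. The elements start at -250 in Dab2, a gene of the plus strand, and at -54 and 17 in Lgals9, a gene of the minus strand. All marked letters here are the reverse complement of the motif.
Dab2, chr15:6299539-6299838: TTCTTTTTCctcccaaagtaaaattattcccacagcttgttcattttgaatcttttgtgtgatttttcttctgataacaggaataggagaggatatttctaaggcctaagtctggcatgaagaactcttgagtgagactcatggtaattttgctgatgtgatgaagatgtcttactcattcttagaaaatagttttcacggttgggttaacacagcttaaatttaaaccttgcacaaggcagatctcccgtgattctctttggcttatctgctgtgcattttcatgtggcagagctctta
Lgals9, chr11:78984875-78985174: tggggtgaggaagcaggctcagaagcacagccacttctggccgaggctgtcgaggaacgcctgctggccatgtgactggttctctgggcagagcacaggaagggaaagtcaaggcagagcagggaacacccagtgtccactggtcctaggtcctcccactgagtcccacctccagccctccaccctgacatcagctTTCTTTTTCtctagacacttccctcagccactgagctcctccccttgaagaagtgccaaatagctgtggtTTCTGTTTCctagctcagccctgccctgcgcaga

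Over all called genes with a RefSeq window, motif matches were counted on both strands and are descriptions, not binding sites. The interferon-stimulated element, GAAANNGAA, was in a window of 12.5% of 48 genes that rose, 16.7% of 30 that fell and 8.71% of 6576 genes on the array. The AP-1 motif, TGANTCA, was in 14.6% of those that rose, 13.3% of those that fell and 7.51% of all. The MITF/TFE box, TCANGTGA, was in 8.33%, 3.33% and 5.05% in the same order, and the PU box, GAGGAAGT, in 4.17%, 0% and 3.30%. The kappa-B motif, GGNNTTTCC, was in 0% of those that rose, 13.3% of those that fell and 7.45% of all. These shares rest on few genes, for example 6 risers and 5 fallers with an interferon-stimulated element, and a window without a match says only that these letters are not in it. In the printed windows no match overlaps another.

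Macrophage surface genes fell in part. Of 38 markers and scavenger receptors, 3 fell (Lgals9, C3ar1 and Adgre1) and 2 rose (Mst1r and Clec4a2). That is 13.2% of the list, where 1.21% of all genes passed. The list median was -0.55 against day 5 and -0.80 against days 3 and 4. For 23 of the 38 both RANKL arrays were below all 5 control arrays, where 9.71% of all genes were. C3ar1, the receptor for complement C3a, had 243 and 70 with RANKL, 1058 in the day 5 control and 1346 to 1594 in the earlier controls (-2.70 ± 0.49, adjusted p = 0.028). Adgre1, the F4/80 antigen, had 272 and 215 with RANKL, 574 in the day 5 control and 1243 to 1554 on the earlier control arrays, so its fall was -1.14 ± 0.22 against day 5 (adjusted p = 0.038) and -2.38 against days 3 and 4. Mpeg1, the pore-forming perforin 2 of macrophages, had 2649 and 225 with RANKL and 8253 in the day 5 control; it did not pass (-3.32 ± 0.89, adjusted p = 0.111), but it did against days 3 and 4 (-3.76, adjusted p = 0.00579). The Mpeg1 difference at day 5 was -5.01 without RANKL array 1 and -1.63 without RANKL array 2, so its size depends on the array. Itgam, the CD11b integrin chain, had 474 and 279 against 1242 (-1.68, adjusted p = 0.072), and passed without RANKL array 1 of day 5 (0.0292) or without RANKL array 1 or 2 of day 4 (0.0382 and 0.0376). Csf1r, the receptor for the growth factor M-CSF that both lineages use, had 6261 and 7731 with RANKL and 8031 in the day 5 control, and did not pass (-0.21 ± 0.25; 0.01 after quantile normalization), and another of its probe sets has the opposite sign. C3ar1 and Adgre1 lost their calls without RANKL array 2 (adjusted p = 0.0638 and 0.17) and without any 1 of the control arrays of days 3 and 4 (0.0535 to 0.0546 for C3ar1 and 0.0637 to 0.0702 for Adgre1).

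Of 16 Fc receptor and ITAM signalling genes, 1 fell and 0 rose. Fcgr2b, the inhibitory IgG receptor, had signals of 218 and 118 with RANKL, 1252 in the day 5 control and 1026 to 1364 in the earlier controls (-2.73 ± 0.30, adjusted p = 0.00216). The activating receptor Fcgr1 had 360 and 89.7 with RANKL against 2048, below all 5 control arrays, and did not pass (-3.25 ± 0.72, adjusted p = 0.0606). It passed without RANKL array 1 of day 5 (adjusted p = 0.0102) and without RANKL array 1 or 2 of day 4 (0.0261 and 0.0262). The Src-family kinase Fgr, with 454 and 367 against 1550, did not pass either (-1.85, adjusted p = 0.0598; 0.019 and 0.0192 without RANKL array 1 or 2 of day 4). In 17 complement genes C3ar1 was the 1 that fell, and 0 rose (median 0.09). Lysosomal hydrolases and membrane proteins had no gene past the threshold among 35, with a median of -0.33. Of the 35, 27 were negative, where 62.5% of all probe sets were positive. Ctsb, Ctsl and Ctsd, cathepsins other than the osteoclast enzyme Ctsk, had -1.12, -0.90 and -0.86. Ctsb, of which another probe set has the opposite sign, and Ctsl passed without RANKL array 1 (adjusted p = 0.0313 and 0.0217).

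Of 37 interferon-induced genes 3 fell and 0 rose (8.11%, where 1.21% of all genes passed). A negative difference was found for 28 of the 37, where 62.5% of all probe sets had a positive one. The list median was -0.78 against day 5 and -0.41 against days 3 and 4. Ifih1, the RNA sensor MDA5, had 126 and 113 with RANKL, 712 in the day 5 control and 244 to 381 in the controls of days 3 and 4 (-2.29 ± 0.32, adjusted p = 0.00725). Ifit2, which blocks translation of viral RNA, had 9.54 and 2.82 with RANKL, 104 in the day 5 control and 21 to 63.6 on the earlier control arrays (-1.84 ± 0.26, adjusted p = 0.00725). Sp100, a nuclear body protein, had 66.9 and 95.1 against 329 (-1.69 ± 0.33, adjusted p = 0.0386). In each of these the control signal was highest at day 5. Usp18, the protease that removes ISG15, had 266 and 180 with RANKL, 2040 in the day 5 control and 400 to 1652 on the earlier control arrays, and did not pass (-3.04 ± 0.65, adjusted p = 0.0573). It passed without RANKL array 1 of day 5 (adjusted p = 0.049) and without control array 1 or 2 of day 3 (0.016 and 0.0157). Irf7, with 182 and 315 with RANKL against 1593, overlapped the earlier controls, which ran from 165 to 1038 (-2.58, adjusted p = 0.216). Ifit2 lost its call without RANKL array 2 (adjusted p = 0.0581), and Sp100 without RANKL array 1 (0.0728), without RANKL array 2 (0.0829) and without any 1 of the control arrays of days 3 and 4 (0.0588 to 0.0643).

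Chemokine and cytokine genes moved both ways. Of 26 chemokine ligands and receptors, 1 rose (Ccr1) and 3 fell (Ccl7, Ccl2 and Ccl5), with a median of -0.01. Ccl7, a monocyte attractant, had 40.4 and 27 with RANKL, 454 in the day 5 control and 61.4 to 110 in the earlier controls (-2.89 ± 0.52, adjusted p = 0.027). Against days 3 and 4 its difference was -0.82 and did not pass (adjusted p = 0.28). Ccl4, another attractant, had the lowest difference of the list, with 2205 and 190 with RANKL and 12019 in the day 5 control, and did not pass (-4.10 ± 1.09, adjusted p = 0.104; 0.0037 without RANKL array 1, at -5.76, and -2.43 without RANKL array 2). Of 36 inflammatory cytokines, receptors and effectors, Vegfc rose and Il10ra fell, with a median of -0.40 against day 5 and -0.03 against days 3 and 4. Il10ra, a chain of the interleukin 10 receptor, had 31.1 and 14.2 with RANKL, 215 in the day 5 control and 200 to 263 on the earlier arrays (-2.20 ± 0.44, adjusted p = 0.0435). Tnf, with 3172 and 986 with RANKL and 9188 in the day 5 control, overlapped the earlier controls and did not pass (-2.35, adjusted p = 0.141; 0.0281 without RANKL array 1, and -1.52 without RANKL array 2). Without RANKL array 2 the adjusted p was 0.132 for Ccl7 and 0.204 for Il10ra, and for Il10ra it was 0.0616 to 0.0764 without any 1 of the control arrays of days 3 and 4.

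The other large falls came from several gene families. Selenbp1, a methanethiol oxidase, had 52 and 20.8 with RANKL, 588 in the day 5 control and 200 to 228 in the earlier controls (-3.22 ± 0.56, adjusted p = 0.0238). Sqor, which oxidises sulfide in mitochondria, had 115 and 36.2 against 612 (-2.69 ± 0.46, adjusted p = 0.0225; its other probe set has the opposite sign). Nrp1, a receptor for semaphorins and VEGF, had 66.9 and 7.52 against 484 (-3.04 ± 0.51, adjusted p = 0.0204), the opposite direction to its partner Plxnd1. Plin2, the coat protein of lipid droplets, had 2196 and 928 against 9439 (-2.70 ± 0.42, adjusted p = 0.0132), and Anxa3, a membrane-binding annexin, 202 and 91.2 against 1073 (-2.70 ± 0.38, adjusted p = 0.00725). Lsp1, a leukocyte actin-binding protein, had 155 and 203 with RANKL, 1298 in the day 5 control and 2606 to 4355 in the earlier controls (-2.66 ± 0.35, adjusted p = 0.00556, and -3.93 against days 3 and 4). Slfn4, a schlafen of activated macrophages, had 1250 and 393 with RANKL against 5508 in the day 5 control (-2.91 ± 0.50, adjusted p = 0.0215). Without RANKL array 2 the adjusted p was 0.122 for Selenbp1, 0.079 for Sqor and 0.0622 for Nrp1.

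Of the remaining largest falls, Ambp, the precursor of alpha-1-microglobulin, had 9.68 and 7.18 with RANKL, 263 in the day 5 control and 64.5 to 153 in the earlier controls (-2.87 ± 0.44, adjusted p = 0.0132; 0.0635 without RANKL array 2). Pmp22, a membrane protein known from myelin, had 442 and 61.1 with RANKL against 1815 in the day 5 control (-3.14 ± 0.64, adjusted p = 0.0492), and its other probe set has the opposite sign. It was -1.96 without RANKL array 2 and -4.31 without RANKL array 1, and its adjusted p was 0.0562 to 0.0856 without any 1 array of RANKL day 4, control day 3 or control day 4. The probe set that represents Ighm, the immunoglobulin mu chain, had 196 and 175 against 1206 (-2.51 ± 0.36, adjusted p = 0.00784), but 8 other probe sets of Ighm had the opposite sign, so the direction of that gene is uncertain.

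The labelled cell types were checked against their markers. The summed signal of 6 represented osteoclast markers (Acp5, Ctsk, Mmp9, Calcr, Itgb3 and Nfatc1) was 28131 to 31168 with RANKL, 1064 in the day 5 control and 1153 to 1749 in the controls of days 3 and 4, with 4 genes up and Calcr and Itgb3 under a signal of 100 on all 3 arrays of day 5. The summed signal of 8 macrophage markers was 29763 to 36696 with RANKL, 53558 in the day 5 control and 51745 to 62713 in the controls of days 3 and 4, and 1 of the 8, Adgre1, fell. A lower signal in such bulk RNA cannot tell fewer cells of a type from less RNA per cell. Markers of stromal, T, B, neutrophil, erythroid and dendritic cells had 0 genes past the threshold in either direction in the sets of 2 to 6 represented markers, and summed to at most 1993 on any RANKL array of day 5 or control array of days 3 to 5.

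**Figure D3:**
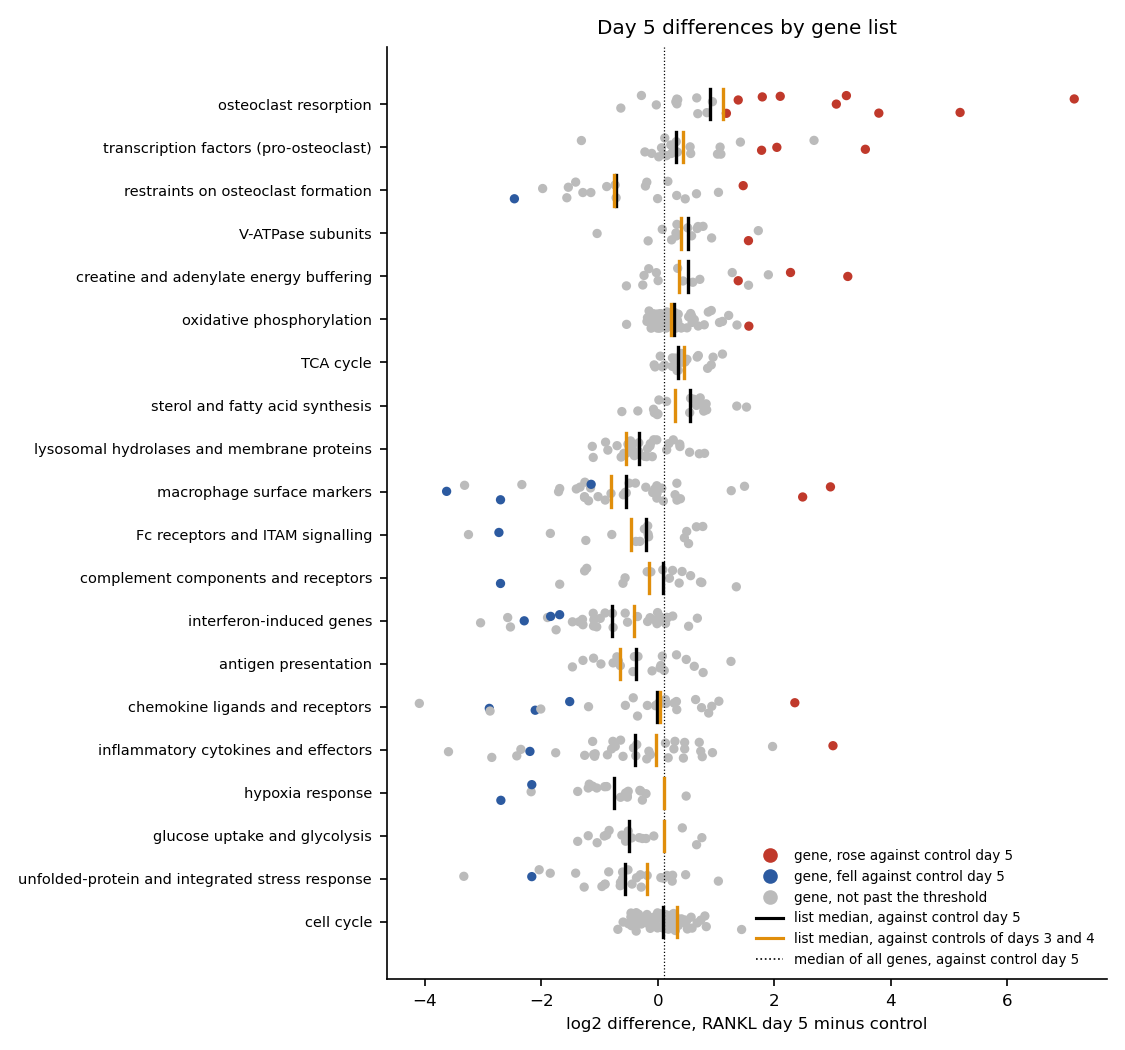
Each row is a gene list and each dot 1 represented gene at its log2 difference, RANKL day 5 minus control day 5, with red for genes that rose, blue for genes that fell and gray for genes not past the threshold. The black bar is the list median against the day 5 control and the orange bar that against the controls of days 3 and 4; the bars part most for hypoxia response (-0.76 and 0.10) and for glucose uptake and glycolysis (-0.50 and 0.11).

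Most called genes lay beyond the other late controls as well. Of the 58 genes that rose, 55 had both RANKL arrays above all 5 control arrays of days 3 to 5, and of the 42 that fell, 35 had both below. Over all genes the shares were 12.6% and 9.71% (11.6% and 8.39% of probe sets), and since the RANKL arrays and the day 5 control enter both the test and this order, the count is no independent support. Against the mean of control days 3 and 4, which uses the same RANKL arrays, 50 of the 58 and 32 of the 42 passed in the same direction. That comparison gave 694 probe sets (5.59%), 284 higher (2.29%) and 410 lower (3.3%), and 191 without RANKL array 2 of day 5, 415 without control array 2 of day 3, and 423 and 445 without control array 1 and 2 of day 4. Its largest rises were Acp5 (6.55), Ctsk (4.67), Myc (3.75), Slc9b2 (3.43) and Nfatc1 (3.34), and its largest falls Lsp1 (-3.93), Dab2 (-3.79), Mpeg1 (-3.76), Pmp22 (-3.71) and Saa3 (-3.27), an acute-phase protein.

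The differences were smaller against the earlier controls. The median of the 58 genes that rose was 1.79 against day 5 and 1.38 against days 3 and 4, and that of the 42 that fell was -2.18 and -1.50. The day 5 control was the lowest of the 5 late control arrays for 37 of the 58 genes that rose, as it was for 32.6% of all genes, and the highest for 27 of the 42 that fell, as it was for 20.6% of all genes. In the genes that rose, the day 5 control differed from the controls of days 3 and 4 by a median of -0.45, and in those that fell by 0.46. The median over all genes was -0.08. The genes were called with this array in the test. What part of the day 5 differences comes from this 1 control array was not tested.

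In 10 called genes the RANKL and control arrays of days 3 to 5 overlapped, and these are named after their values were seen. The 3 that rose were Hspa1b, an inducible heat shock protein whose near-identical copy Hspa1a may share its probes, Sema4d, a semaphorin, and Polr2j, an RNA polymerase subunit. Hspa1b had 122 and 208 with RANKL, 8.35 in the day 5 control and 161 to 267 in the controls of days 3 and 4, a difference of 2.25 against day 5 and -0.31 against days 3 and 4. Sema4d had 3323 and 4128 with RANKL, 1653 in the day 5 control and 3230 to 4654 on the earlier arrays (1.15 against day 5 and -0.09 against days 3 and 4). The 7 that fell were Ccl2, Ccl5, Ero1a, Slc20a1, Rabggta, Acp1 and Prss40. Ero1a, an oxidase of the endoplasmic reticulum, had 3316 and 1412 with RANKL, 9823 in the day 5 control and 1683 to 2671 in the earlier controls (-2.16 against day 5 and 0.06 against days 3 and 4). Ccl5 had 19.1 and 34.9 with RANKL, 135 in the day 5 control and 16.8 to 33.2 in the earlier controls (-1.51 and 0.11). In all 10 the control array of day 5 lay outside the 4 control arrays of days 3 and 4. Without RANKL array 2 the adjusted p was past the threshold of these 10 for Ccl2 alone (0.0164), and for the others it ran from 0.0632 to 0.186. Without any 1 of the control arrays of days 3 and 4, Ero1a, Ccl5, Sema4d, Slc20a1 and Rabggta lost their calls (adjusted p = 0.0523 to 0.0784), as did Prss40 and Polr2j without a control array of day 4 (0.0547 to 0.0666), and without RANKL array 1 Ccl5 (0.1) and Prss40 (0.056). Of Acp1, 3 other probe sets have the opposite sign.

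**Figure D4:**
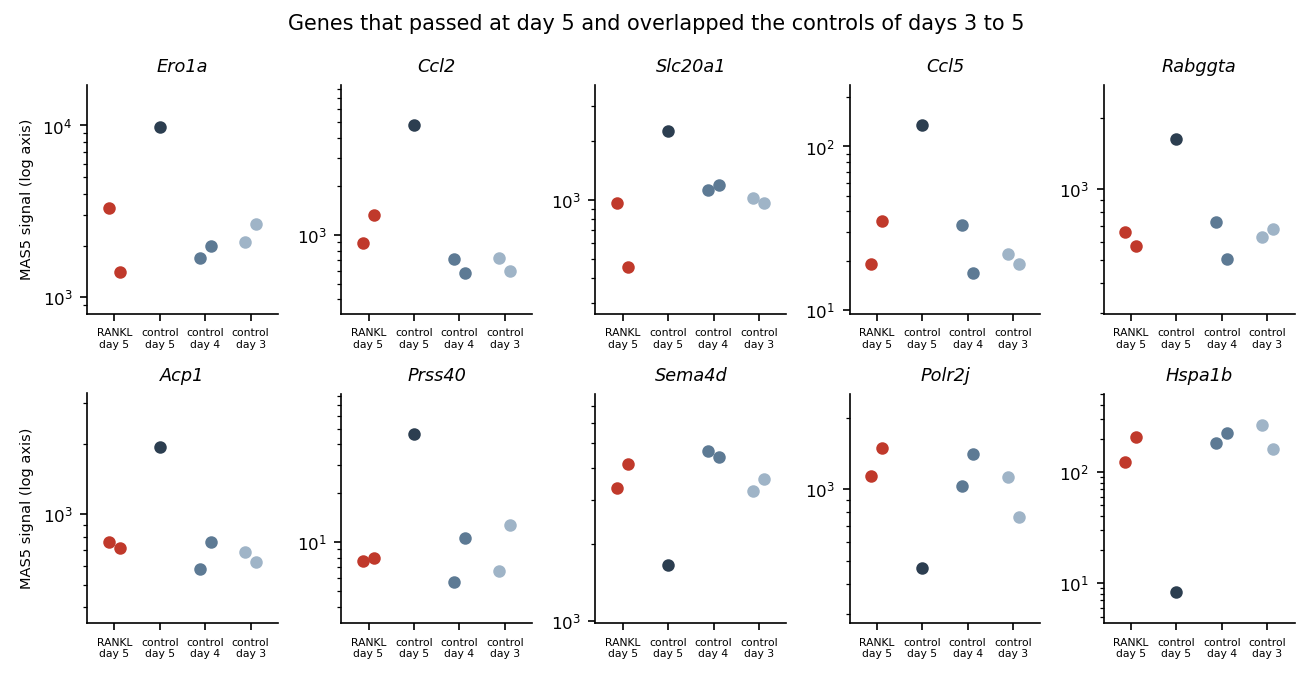
Each panel shows the MAS5 signal on a log axis of 1 of the 10 genes that passed at day 5 while its RANKL arrays overlapped the control arrays of days 3 to 5. RANKL day 5 is at the left, followed by control days 5, 4 and 3; in each panel the single day 5 control point stands apart from the 4 other control points (9823 against 1683 to 2671 for Ero1a).

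By gene list, the same split appeared for genes of oxygen and glucose supply. Of 20 hypoxia response genes 2 fell, Plin2 and Ero1a (10%, where 1.21% of all genes passed). Against day 5, 19 of the 20 were negative, where 62.5% of all probe sets were positive. The list median was -0.76 against day 5 but 0.10 against days 3 and 4. In these genes the day 5 control was higher than the earlier controls by a median of 0.64. Slc2a1, the glucose transporter GLUT1, had 1253 and 734 with RANKL, 2542 in the day 5 control and 745 to 1152 in the earlier controls (-1.38, adjusted p = 0.129; 0.047 without RANKL array 1). Of 18 glycolysis genes 0 passed and 15 were negative (median -0.50 against day 5, 0.11 against days 3 and 4). Unfolded-protein and integrated stress response genes, with 1 of 28 fallen (Ero1a), had medians of -0.56 and -0.19, led by Atf3, a stress-induced factor that did not pass (1411 and 151 with RANKL, 5145 in the day 5 control; -3.33, adjusted p = 0.0785). The Atf3 difference was -4.82 without RANKL array 1 and -1.84 without RANKL array 2, and its other probe set has the opposite sign. By contrast the medians of resorption genes (0.89 and 1.13) and macrophage surface genes (-0.55 and -0.80) were farther from 0 against days 3 and 4. A gene can stand in more than 1 list, as Ero1a does here, so the lists are not separate observations. No test of these list medians was made.

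The day 5 difference was then set against that of day 4, the other day with cells labelled multi-nuclear. These differences share no array. Of the 58 genes that rose at day 5, 50 had a positive difference at day 4 (median 0.78), where 47.2% of all probe sets were positive, and of the 42 that fell 35 had a negative one (median -0.52). In the test of the difference between days, 1 of 12422 probe sets passed (0.00805%) and 1230 had an unadjusted p under 0.05. That probe set belongs to Ccl2, the monocyte chemoattractant MCP-1. Its signals at day 5 were 891 and 1326 with RANKL and 4786 in the control, and at day 4 they were 1723 and 1285 with RANKL and 710 and 577 in the controls. The RANKL effect was -2.11 ± 0.30 at day 5 (adjusted p = 0.00802) and 1.18 at day 4, a difference of -3.28 ± 0.39 (adjusted p = 0.0388). With the mean of the 5 late control arrays as the control side, the Ccl2 difference was 0.15. The count of 1 was 29 without RANKL array 1 of day 5, and 0 without any 1 array of RANKL day 4, control day 3 or control day 4.

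Some genes differed far more at day 5 than at day 4 without passing that test. Fcgr2b had 927 and 1049 with RANKL at day 4, against 1306 and 1263 in the controls of that day, and 218 and 118 at day 5; its difference was -0.37 at day 4 and -2.73 at day 5. Lsp1 had 1920 and 1026 with RANKL at day 4 and 155 and 203 at day 5 (-0.93 and -2.66). At day 2 both genes were also low with RANKL, at 116 and 114 for Fcgr2b and 172 and 232 for Lsp1. The controls of day 2 had 280 and 261 for Fcgr2b and 992 and 1240 for Lsp1. Among genes that rose, Chchd10 had 927 and 680 with RANKL at day 4 and 1961 and 3023 at day 5 (1.47 and 3.26), and Scin had 170 and 220 at day 4 and 500 and 874 at day 5 (0.48 and 2.83). Acp5 (6.03 and 7.15), Ccr1 (2.62 and 2.35) and Ckb (1.68 and 1.38) were near their day 5 size at day 4. Ank had the larger difference at day 4 (2.94 and 2.10), as did Egr2 (2.13 and 1.47).

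**Figure D5:**
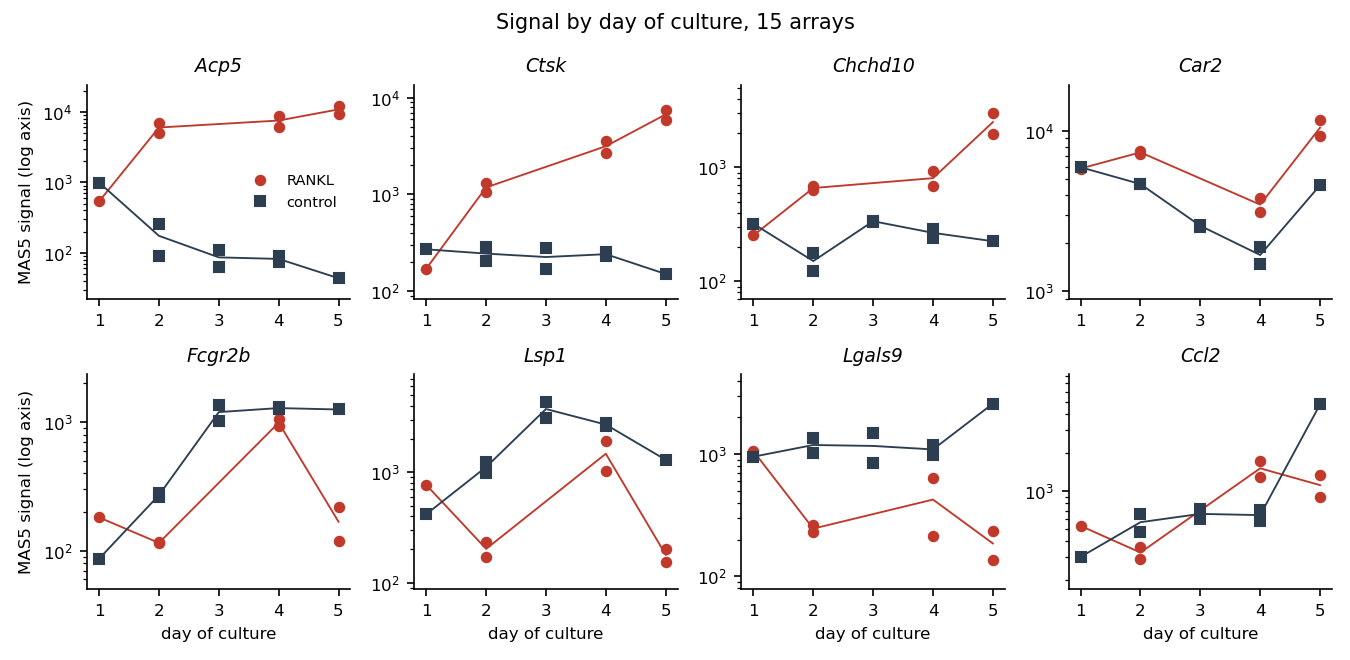
Each panel shows the MAS5 signal on a log axis of 1 gene on all 15 arrays by day of culture, with RANKL arrays as red circles, control arrays as dark squares and lines through the means of each day; RANKL at day 3 was not analysed here. Acp5 and Ctsk stand above control from day 2 on, and the Ccl2 control of day 5 is at 4786. Fcgr2b and Lsp1 with RANKL are low at day 2 (116 and 114 for Fcgr2b) and again at day 5 (118 to 218 for Fcgr2b).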

How the data were processed

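RNA of RAW 264.7 cells was hybridised to 15 Affymetrix arrays, 1 biotin-labelled sample each, with groups taken from the sample titles. The deposited values are probe set intensity values (linear signals) made by the authors with MAS5, per the submitters' processing notes, whose version is not given in the sources used here; the trimmed mean of 500 shows that the arrays had been scaled. Detection calls and scanner files were not used here. No further normalization was applied, and the number of arrays limits the precision.

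Of 12488 probe sets, 66 manufacturer controls were left out and 12422 were tested as log2(signal + 32) without a filter on dim signals, which understates changes of dim genes. The annotation gives 1 gene for 10833 probe sets, several for 396 and none for 1193. For 8251 genes, the brightest probe set by mean log2 signal stands for the gene. limma 3.58.1 in R 4.3.3 fitted 1 mean for each of 9 groups over all 15 arrays (lmFit, eBayes with trend), leaving 6 residual and 5.39 prior degrees of freedom. The single control array of day 5 is assumed to vary like the other groups. Tests were two-sided, with Benjamini-Hochberg adjustment over all probe sets within a comparison. The procedure was tested on simulated data. At day 5 it recovered 16% of changes of 1 and 60% of changes of 2 on the log2 scale. For day 5 against day 4 it recovered 4% and 42%. A gene that did not pass may therefore still differ.

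The comparisons and the 36 gene lists (1000 genes, 799 represented) were chosen with earlier results of these data known. Named genes are the 15 largest rises and falls at day 5, the 5 largest of each other comparison, list members past the threshold or among the 4 largest of a list, and a panel of 14; others named were chosen after their values were seen. Promoter windows are from RefSeq (GRCm38.p6), matched by symbol, for 6576 of the genes. Alternatives were quantile normalization, no trend, pseudocounts of 1 and 100, the brighter 50% of probe sets, the replicate number as a block, only the arrays of days 3 to 5, each array left out, all 5 late controls as the control side, and, added after seeing the data, a covariate for the beta-actin ratio (3' over 5').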

Additional observations from a re-analysis of the deposited data

Results flagged for a closer look

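The RANKL effect on Ccl2, the chemokine MCP-1, differed between day 5 and day 4 by -3.28 ± 0.39 on the log2 scale (limma, adjusted p = 0.0388), the 1 probe set of 12422 that passed the test of that difference. Both RANKL arrays of day 5 were below the day 5 control and both RANKL arrays of day 4 were above the day 4 controls. The day 5 control had 4786, against 577 to 718 on the 4 control arrays of days 3 and 4, so the day 5 direction rests on 1 array. In the same fit the Ccl2 signal of the day 5 control was above the controls of days 3 and 4 by 2.82 ± 0.28 on the log2 scale. With 1 control array at day 5, the day cannot be told apart from that array.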

How the results depend on the processing

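The count of 114 probe sets at day 5 was 43 with the arrays of days 3 to 5 only, 64 with the replicate block, 244 among the upper 50% of probe sets and 655 with the mean of the 5 late control arrays as the control side, and 52 to 355 when 1 array was left out. Of these, the count with both RANKL arrays beyond all 5 late controls (101) was 39, 57, 207 and 616 in the same order, and 50 to 340 with 1 array left out. The split of 64 higher and 50 lower was 68 and 77 after quantile normalization, and 71 and 75 with a pseudocount of 100. Against the controls of days 3 and 4 the count of 694 was 191 to 713 with 1 array left out. For day 5 against day 4 the count of 1 was 0 with the arrays of days 3 to 5 only, the beta-actin covariate, no intensity trend, quantile normalization or the replicate block, 3 with a pseudocount of 1, 2 among the upper 50% and 0 to 29 with 1 array left out. In that design fewer arrays or a further term leave fewer residual degrees of freedom. With 1 array left out the day 5 count moved both up and down. What moves these counts was not tested.

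Replicate numbers did not pair the arrays: deviations of same-numbered arrays correlated at -0.17 to 0.12 over 15 pairs of groups, and the control of day 5 has no second array. The replicate block is therefore given as counts of calls only. Of 69 called genes examined, 23 passed in every alternative and 46 did not in at least 1, of which 37 were lost without RANKL array 2 of day 5 and 5 without RANKL array 1. Direction changed for Ccl2 with all 5 late controls (0.15), and, among genes not called, for Calcr with 1 array left out (-0.0327, without RANKL array 1 of day 5, to 0.688, without RANKL array 2) and Csf1r after quantile normalization (0.00567). The single day 5 control array limits every day 5 value, and dim genes such as Calcr and Itgb3 lie where the added 32 compresses differences.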

Other observations

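The naming rule did not reach all called genes, and the 4 rises and 3 falls given here were chosen after their values were seen. Pip5k1b, a kinase that makes the lipid PIP2, had 2058 and 2242 with RANKL, 861 in the day 5 control and 464 to 521 in the controls of days 3 and 4 (1.29 ± 0.20, limma adjusted p = 0.0146; 0.0698 without RANKL array 2). Map2k3, which activates p38 kinases, had 2703 and 3636 with RANKL and 1193 in the day 5 control (1.37 ± 0.21, adjusted p = 0.0132; 0.0594 without RANKL array 2). Hsd3b7, an enzyme of bile acid synthesis, had 1057 and 1201 with RANKL and 252 in the day 5 control (2.03 ± 0.24, adjusted p = 0.00286). Cpe, carboxypeptidase E, a processing enzyme of neuroendocrine cells, had 138 and 115 with RANKL and 1.69 in the day 5 control (2.23 ± 0.31, adjusted p = 0.00712). With a control signal so near the floor, its size depends on the value added before the log, from 1.15 with 100 to 5.56 with 1. In all 4 genes both RANKL arrays lay above every late control array.

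The falls included 2 transcription factors. Mef2c, known from muscle and B cells, had 146 and 63.5 with RANKL and 710 in the day 5 control (-2.51 ± 0.46, adjusted p = 0.0302; 0.138 without RANKL array 2, 0.0538 and 0.0544 without control array 1 or 2 of day 3). Lyl1, a blood-lineage factor, had 1198 and 356 with RANKL and 3506 in the day 5 control (-2.36 ± 0.48, adjusted p = 0.0456; -1.52 without RANKL array 2, and adjusted p = 0.0508 to 0.0822 without any 1 array of RANKL day 4, control day 3 or control day 4). Cdk14, a cyclin-dependent kinase of the cell membrane, had 485 and 544 with RANKL against 1581 in the day 5 control (-1.56 ± 0.21, adjusted p = 0.00586). Of 69 cell cycle genes 0 passed, with a median of 0.09, and the proliferation marker Mki67 had 982 and 1022 with RANKL and 847 in the day 5 control (0.23 ± 0.49). Of 20 sterol synthesis genes 0 passed, with a median of 0.56, and Hmgcs1, an early enzyme of that pathway, had 670 and 1422 with RANKL and 319 in the day 5 control (1.52 ± 0.51, adjusted p = 0.198).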
